A study of Arabidopsis thaliana with 12 samples.

Results

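The interaction of leaf age and abscisic acid (ABA) is the difference between the ABA response of young leaves and the ABA response of old leaves. It was computed for each gene on the log2 scale as ABA minus mock in leaf 12 (L12), minus ABA minus mock in leaf 7 (L7), over all 12 libraries of the series, and within each of the 3 replicate numbers. The table lists 32678 genes, and the 18291 whose counts averaged 10 or more over the libraries were tested. A positive difference means a higher response in L12 and a negative one a higher response in L7. All plants were wild-type Arabidopsis thaliana of the accession Col-0, 4 to 5 weeks old. The treated groups were sprayed on the leaves with 500 µM ABA and the mock groups with the same solution without ABA, both in 0.5% ethanol with Tween 20. Old leaves (L7, fully expanded) and young leaves (L12) were taken 48 h after the spray, which gave 4 groups (mock L7, ABA L7, mock L12 and ABA L12) with 3 libraries in each. The number of plants behind a library is not given in the sources used here, and equal replicate numbers were taken as the same repeat of the experiment. The p-values measure the spread between these libraries. All comparisons are between whole leaves, so fewer cells of a type and less RNA per cell cannot be told apart.

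ABA is a hormone of drought and salt stress. It binds receptors of the PYR/PYL family, which then inhibit clade A protein phosphatases (PP2C), and this frees SnRK2 kinases to activate transcription factors of the ABF family. These factors bind the ABA-responsive element (ABRE) of promoters and induce protective proteins, osmolyte synthesis and feedback genes, among them the phosphatases themselves. ABA also restrains growth and, in leaves, acts against salicylic acid and promotes senescence, and the age of a leaf sets much of the state on which it acts.

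Each library held between 11811137 and 21485394 counts on genes, and between 5.97% and 10.3% of the counted reads lay in lines of the table that name no gene. Normalization factors (TMM) lay between 0.612 and 1.3. Levels below are CPM, counts divided by the scaled size of the library, which compare a gene between libraries but not genes with each other. The leaf ages were checked on 27 genes of DNA replication and cell division, whose median was 1.95 log2 units higher in L12 than in L7 of mock plants. Markers of flowers and seeds were low, with 7 counts of AP3, 84 of AG, 21 of CRA1 and 1 of OLEO1 over all 12 libraries. None of them reached the mean of 10 counts needed for a test.

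No gene passed the threshold for the interaction (adjusted p below 0.01 and a difference beyond 1 on the log2 scale). This was 0.00% of the 18291 genes, and the smallest adjusted p was 0.0793, for LTP2 (quasi-likelihood test of edgeR, adjusted by Benjamini-Hochberg). At an unadjusted p below 0.05 there were 1358 genes (7.42%), 627 with the higher response in L12 (3.43%) and 731 with the higher response in L7 (4.00%). DESeq2 called 35 genes, 29 of them with the higher response in L12, and limma with voom called 0 with 1496 genes at an unadjusted p below 0.05. The genes described below are therefore called leaning, not changed. A gene leans to one leaf age if its unadjusted p is below 0.05, its difference is beyond 1 and the difference has the same sign in all 3 replicate numbers. By this rule 819 genes leaned (4.48% of those tested), 396 to the higher response in L12 (2.16%) and 423 to the higher response in L7 (2.31%). These values chose the genes and are no evidence for them. Just inside the limit on p lay CAF1 and AT4G40000, with differences of -1.04 and -2.59. Just outside lay AT5G44578 and AT5G47700, with 1.49 and -1.07. By the fit alone, 48.9% of all genes had the higher response in L12 and 51.1% in L7. For the responses themselves, ABA called 537 genes in L7 (2.94%), of which 0.935% of all genes were higher and 2.00% lower. In L12 it called 831 genes (4.54%), with 1.47% higher and 3.08% lower.

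The leaning genes were sorted by the leaf with the larger fitted response and by its direction, which names 4 kinds without a test. In 232 genes the larger response was an increase in L12, with a median response of 1.61 there and 0.03 in L7. In 164 genes it was a decrease in L7, with a median of -1.8 there and -0.07 in L12. Both kinds lean to L12. Among the genes leaning to L7, 208 had the larger response as an increase in L7, with medians of 1.42 in L7 and 0.11 in L12, and 215 as a decrease in L12, with medians of -0.06 in L7 and -1.55 in L12. The medians near 0 are over members that go both ways. The fitted responses had opposite signs in 380 of the 819 leaning genes, and in 4116 of all 18291.

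**Figure D1:**
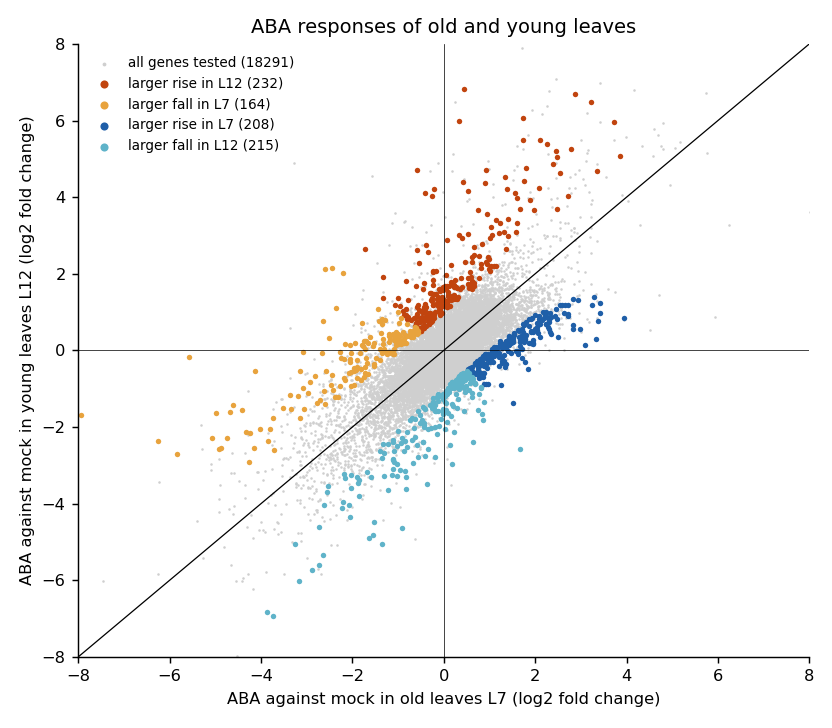
Fitted ABA response of each tested gene in old leaves L7 (x axis) and in young leaves L12 (y axis), both as log2 fold changes of ABA against mock, with the 4 kinds of leaning genes in color and all 18291 genes in grey. The diagonal marks equal responses, 14 genes lie outside the plotted range of 8 log2 units, and the colored genes lie on both sides of the diagonal, some with the response of one leaf near 0 and some with a response in both.

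LTP2, which encodes a lipid transfer protein of the epidermal cell wall, had the smallest interaction p of all genes. Its level was 176, 282 and 275 CPM in mock L7, 151, 193 and 215 CPM in ABA L7, 16.7, 16.4 and 30.7 CPM in mock L12, and 150, 134 and 129 CPM in ABA L12 (replicates 1, 2 and 3 in each group). The mock L12 libraries were far below all others, and the ABA L12 libraries came close to the level of old leaves, while the mock and ABA libraries of L7 overlapped. The log2 change with ABA was 2.76 in L12 (adjusted p = 0.000439) and -0.39 in L7 (adjusted p = 0.334). The difference was 3.14 with a standard error (SE) of 0.37, and 3.39, 3.57 and 2.42 within replicates 1, 2 and 3. LTP2 lies on chromosome 2 at 16128176 to 16129399. The 250 bases before its start (TAIR10.1 of RefSeq, chr2:16127926-16128175, plus strand) are shown because they hold the core word of the ABRE, ACGTG, 74 bases before the start. The word was searched on both strands, and the capitals mark it, here in its reverse form CACGT.

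LTP2: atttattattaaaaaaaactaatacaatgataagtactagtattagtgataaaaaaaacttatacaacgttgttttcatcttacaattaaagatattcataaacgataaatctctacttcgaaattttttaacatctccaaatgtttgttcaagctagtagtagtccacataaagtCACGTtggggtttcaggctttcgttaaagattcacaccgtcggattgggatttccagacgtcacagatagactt

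Other lipid transfer proteins were listed with it. Of the 6 members tested 3 leaned to L12 and none to L7, against 2.16% and 2.31% of all genes. LTP3 and LTP4 are ABA- and drought-inducible neighbours on chromosome 5. LTP3 stood at 914, 1904 and 1417 CPM in mock L7 and at 2957, 3133 and 6448 CPM in ABA L7. In L12 it stood at 25.3, 72.7 and 48.3 CPM in mock and at 876, 510 and 979 CPM in ABA leaves. Every ABA library of LTP3 was above every mock library of the same leaf, and the step was larger in L12, with a log2 change of 4.12 (adjusted p = 0.000795) against 1.55 in L7 (adjusted p = 0.0353). LTP4 had 1.29, 18.2 and 3.37 CPM in mock L12 and 370, 226 and 574 CPM in ABA L12, a log2 change of 6.48 (adjusted p = 0.00254). In L7 its change was 3.23 (adjusted p = 0.0302). LTP1, LTP5 and LTP6 had differences of -0.09, -0.25 and -1.76 and did not lean, so the list has members on both sides of 0. LTP3 and LTP4 are close paralogs whose reads may be shared.

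Several of the strongest leans to L12 shared this form, a gene that was far lower in young than in old mock leaves and that ABA brought closer to the old level. PYD4, an aminotransferase named for pyrimidine breakdown, had 22.3, 25.5 and 32.7 CPM in mock L7 and 47.4, 37.0 and 30.9 CPM in ABA L7. In L12 it had 0.216, 0.445 and 0.293 CPM in mock and 6.85, 3.21 and 8.43 CPM in ABA leaves. It was close to silent in young mock leaves, and its log2 change of 4.16 in L12 (adjusted p = 0.000645) exceeded the 0.54 in L7 (adjusted p = 0.313) by 3.62 (SE 0.56). PUT1, a polyamine transporter, had 1.16, 1.17 and 1.39 CPM in mock L12 and 8.19, 6.06 and 18.5 CPM in ABA L12, while its L7 libraries lay between 14.0 and 29.9 CPM with mock and ABA overlapping. AT1G80130 rose in L12 by 3.07 log2 units (adjusted p = 0.000218), from 3.62, 4.98 and 7.61 CPM to 40.0, 31.1 and 69.9 CPM, and changed by 1.21 in L7 (adjusted p = 0.0120). AT5G44572 rose by 2.06 in L12 (adjusted p = 0.00291) and had -0.23 in L7. SWEET13, which exports sucrose from leaf cells, rose by 1.84 in L12 (adjusted p = 0.00327) and had -0.23 in L7 (adjusted p = 0.610). In SWEET13 all 3 replicates were higher with ABA in L12, although replicate 2 was low in every group.

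GAMMA-VPE, a vacuolar protease of senescing and dying tissue, moved toward a common level from both sides. Its level was 477, 346 and 494 CPM in mock L7 and 264, 262 and 234 CPM in ABA L7, against 51.8, 55.0 and 66.3 CPM in mock L12 and 114, 98.1 and 105 CPM in ABA L12. Neither leaf's mock and ABA libraries overlapped. The log2 changes of -0.78 in L7 (adjusted p = 0.0328) against 0.87 in L12 (adjusted p = 0.0183) missed the threshold, and their difference was 1.65 (SE 0.28). AT1G33055 was a low gene of the same pattern, with a total of 104 counts in mock L7, 30 in ABA L7, 15 in mock L12 and 73 in ABA L12, and a difference of 4.60 (SE 0.66).

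Other leans to L12 came from a decrease in old leaves. AT5G22580 had 83.5, 92.7 and 87.5 CPM in mock L7 and 1.62, 2.29 and 0.622 CPM in ABA L7. In L12 it had 144, 66.1 and 109 CPM in mock and 21.3, 16.0 and 12.4 CPM in ABA leaves. It fell in both leaves, by 5.85 log2 units in L7 (adjusted p = 0.000326) and by 2.7 in L12 (adjusted p = 0.00170), and the decrease was larger in L7 in each replicate. NRAMP1, a manganese and iron transporter, fell in L7 from 44.8, 37.6 and 44.0 CPM to 8.75, 14.0 and 9.95 CPM (log2 change -1.95, adjusted p = 0.00318). In L12 its mock and ABA libraries overlapped between 4.25 and 8.49 CPM, with a change of 0.18. FRO7, the iron reductase of chloroplasts, fell in L7 by 2.06 log2 units (adjusted p = 0.00135) and had -0.23 in L12. Its replicate 2 libraries were low in all 4 groups, between 4.12 and 17.7 CPM, and the decrease in L7 was seen in all 3 replicates.

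**Figure D2:**
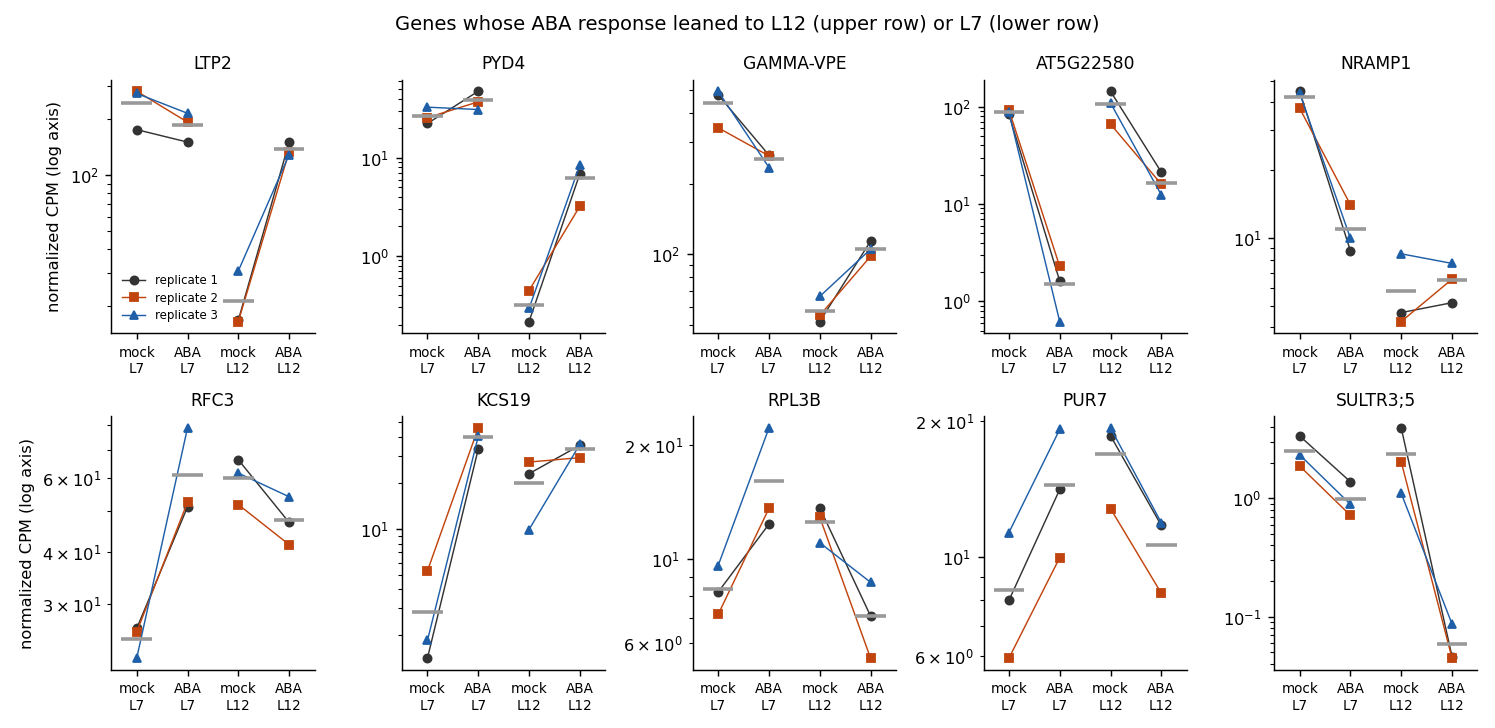
Normalized CPM (log axis) of 10 genes in each of the 12 libraries, with leaning to L12 in the upper row and to L7 in the lower row. Points are libraries, lines join mock and ABA of one replicate number in one leaf, and grey bars are group means. LTP2 rises from about the 16.4 to 30.7 CPM of mock L12 to between 129 and 150 CPM with ABA, while its L7 libraries overlap.

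The members of the ABA pathway were read in the order of the signal. Among 9 tested PYR/PYL receptors of 14 listed, 1 leaned to L12 and none to L7, against 2.16% and 2.31% of all genes. The median difference was -0.33. Its sign was not stable, with 0.35 within replicate 1 and 0.10 in the fit without ABA L12 replicate 3. The receptor that leaned was PYL9. Its level was 14.4, 9.47 and 9.07 CPM in mock L7 and 8.21, 8.16 and 5.68 CPM in ABA L7, against 6.38, 7.24 and 3.29 CPM in mock L12 and 8.23, 7.76 and 10.5 CPM in ABA L12, a difference of 1.28 (SE 0.43) that was 0.82 without replicate 3. Its ABA libraries were below the mock ones in L7 and above them in L12. PYL5 and PYL8 fell in both leaves, PYL5 by 4.40 and 5.95 log2 units and PYL8 by 2.26 and 1.43 (L7 and L12, each at adjusted p below 0.01).

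The clade A PP2C phosphatases, which shut the pathway off and are among its own targets, had the higher response in L12 in 7 of 7 tested members (9 listed), against 48.9% of all genes. Their median response was 1.04 in L7 and 2.15 in L12, and the median difference was 0.91, with 1.35, 0.20 and 1.38 within replicates 1, 2 and 3. Without mock L7 replicate 1 it was 0.52. Over all genes tested the median difference was -0.01. HAI2 and ABI2 leaned to L12. HAI2 had 17.3, 13.4 and 12.8 CPM in mock L7, 38.3, 177 and 87.9 CPM in ABA L7, 2.2, 8.09 and 0.952 CPM in mock L12, and 65.6, 136 and 121 CPM in ABA L12. The ABA levels of the leaf ages overlapped, and the mock level was lower in L12, so that HAI2 rose by 5.05 log2 units in L12 (adjusted p = 0.00101) against 2.48 in L7 (adjusted p = 0.0181). ABI2 had the same form, with a rise of 2.2 in L12 (adjusted p = 0.00234) and 1.04 in L7 (adjusted p = 0.0550). HAI1 rose in both leaves, by 2.78 and 4.11, and did not lean.

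Further down, 2 of 15 SnRK2 kinases and ABF factors leaned to L12 and none to L7, against 2.16% and 2.31% of all genes. ABF3, which binds the ABRE, lay between 21.7 and 24.7 CPM in mock L12 and between 70.2 and 78.1 CPM in ABA L12. In L7 it had 43.1, 11.8 and 43.3 CPM in mock and 44.2, 29.2 and 34.4 CPM in ABA leaves, which overlap. Its difference was 1.44 (SE 0.47), and 1.56, 0.39 and 1.99 by replicate. SNRK2.8, a kinase of the same family, leaned through lower levels with ABA in L7 at few reads. Its CPM were 4.16, 0.550 and 2.73 in mock L7 and 0.885, 0.134 and 0.622 in ABA L7, with overlapping libraries in L12. The SnRK2 kinases of stomatal and seed ABA signaling, SNRK2.2, SNRK2.3 and SNRK2.6, had differences of 0.24, 0.25 and -0.09.

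Of the 20 protective ABA response genes (LEA and dehydrin proteins and their like), 17 had the higher response in L12, against 48.9% of all genes. Of the 20, 2 leaned to L12, against 2.16% of all genes. The list's median difference was 0.77, with 1.13, 0.62 and 0.27 within replicates 1, 2 and 3, and 0.36 without replicate 2. RAB18, a dehydrin, had 95.2, 273 and 316 CPM in mock L7, 1388, 2835 and 2474 CPM in ABA L7, 35.0, 82.9 and 75.2 CPM in mock L12, and 1527, 1352 and 1556 CPM in ABA L12. RAB18 rose in both leaves without overlap, by 3.36 in L7 (adjusted p = 0.000863) and by 4.68 in L12 (adjusted p = 0.000214). The ABA levels of the leaf ages overlapped, and each mock L12 library was below the mock L7 library of its replicate number. Without ABA L12 replicate 1 the difference of RAB18 was 0.78, against 1.32 with it. LEA4-5 leaned in the same direction, with a difference of 2.05 (SE 0.87) that was 0.78 without mock L7 replicate 3. RD29A, RD29B and ADH1 rose in L12 by 2.56, 6.79 and 3.75 and had differences of 0.94, 2.62 and 1.39, but did not lean. ERD10, COR47 and ERD14 had differences of -0.46, -0.20 and -0.11.

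Among genes of ABA synthesis and breakdown, 1 of 10 leaned to each side, against 2.16% of all genes to L12 and 2.31% to L7. Both leaning members encode ABA 8'-hydroxylases, which inactivate the hormone. CYP707A2 rose in both leaves and more in L12, by 2.48 in L7 (adjusted p = 0.00482) against 3.68 in L12 (adjusted p = 0.000830). CYP707A3 had 8.87, 11.6 and 41.5 CPM in mock L7, 26.9, 22.1 and 15.7 CPM in ABA L7, 83.1, 47.7 and 301 CPM in mock L12, and 18.7, 8.69 and 52.0 CPM in ABA L12. It was high in young mock leaves, and its difference was -3.01 (SE 0.75), with -3.74, -3.37 and -1.14 by replicate. NCED3, of ABA synthesis, had -0.88 in L7 and -0.96 in L12.

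The promoter windows of HAI2 (chr1:2282829-2283078, minus strand) and ANAC032 (chr1:29099589-29099838, plus strand) are shown as those of an ABA feedback gene and of a transcription factor that leaned to L12. The capitals again mark ACGTG or its reverse form. HAI2 held 4 matches, 239, 165, 160 and 12 bases before the start. ANAC032 held 3, at 158, 50 and 49 bases, of which the last pair is one palindrome CACGTG, the G-box, which contains the core on both strands.

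HAI2: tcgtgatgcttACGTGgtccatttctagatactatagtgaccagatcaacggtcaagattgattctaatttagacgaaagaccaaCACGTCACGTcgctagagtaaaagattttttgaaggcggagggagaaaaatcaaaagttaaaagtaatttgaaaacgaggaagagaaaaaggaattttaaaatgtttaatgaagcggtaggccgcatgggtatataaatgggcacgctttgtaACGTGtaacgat

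ANAC032: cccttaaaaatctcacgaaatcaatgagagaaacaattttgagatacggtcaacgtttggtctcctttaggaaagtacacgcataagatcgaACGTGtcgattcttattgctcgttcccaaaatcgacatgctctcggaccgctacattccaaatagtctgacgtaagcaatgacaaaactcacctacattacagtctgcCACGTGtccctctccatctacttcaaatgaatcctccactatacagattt

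The SNAC-A factors are NAC transcription factors downstream of the ABFs that promote senescence and act against salicylic acid. All 7 had the higher response in L12 and 3 leaned to it, against 48.9% and 2.16% of all genes. The median difference was 1.6 (1.69, 0.34 and 2.2 within replicates 1, 2 and 3), and 0.98 without replicate 3. None of the 7 was called changed by ABA in either leaf. ANAC032 had 13, 10.6 and 36.6 CPM in mock L7, 10.1, 28.6 and 21.9 CPM in ABA L7, 4.44, 3.28 and 5.13 CPM in mock L12, and 11.9, 11.4 and 23.7 CPM in ABA L12. ANAC072 had 94.2, 51.3 and 135 CPM in mock L7, 45.7, 176 and 116 CPM in ABA L7, 22.3, 16.6 and 31.8 CPM in mock L12, and 57.3, 86.5 and 116 CPM in ABA L12. In both genes the mock L12 libraries were below all others, the L12 libraries did not overlap between treatments and the L7 libraries did. In L7 replicate 2 alone was higher with ABA, and in L12 all 3 were. The log2 changes in L12 were 1.78 (adjusted p = 0.0183) for ANAC032 and 1.84 (adjusted p = 0.0212) for ANAC072. ANAC019 was alike, with 0.15 in L7 and 2.23 in L12 (adjusted p = 0.0549).

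Senescence genes leaned with them in 2 of 17 tested members, against 2.16% of all genes. ORE1, a NAC factor that drives leaf senescence, had 0.388, 0.283 and 0.220 CPM in mock L12 and 0.966, 11.4 and 7.48 CPM in ABA L12. In L7 it had 6.85, 2.42 and 10.9 CPM in mock and 3.19, 15.5 and 2.13 CPM in ABA leaves, so that replicate 2 was again the one that was higher with ABA. The median difference of the list was 0.45, but -0.47 within replicate 2, and 0.07 without replicate 3. Of the genes for the osmolytes proline and raffinose, 3 of 10 leaned to L12, against 2.16% of all genes. P5CS1, the rate-limiting enzyme of proline synthesis, had 326, 69.7 and 188 CPM in mock L7, 385, 255 and 128 CPM in ABA L7, 267, 167 and 145 CPM in mock L12, and 1273, 761 and 830 CPM in ABA L12. The mock levels of P5CS1 overlapped between the leaf ages, and it rose in L12 by 2.32 (adjusted p = 0.00429) against 0.46 in L7 (adjusted p = 0.440). P5CS2 rose by 2.08 in L12 (adjusted p = 0.00330) and had 1.01 in L7 (adjusted p = 0.0655). GOLS2, of raffinose synthesis, had a difference of 2.84 (SE 0.96) that was 1.77 without mock L7 replicate 1.

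Defense genes were found on both sides. In the list of salicylic acid and PR genes, 3 of 22 tested members leaned to L12 and 1 to L7, against 2.16% and 2.31% of all genes. The fitted response was higher in L12 for 9 of the 22, against 48.9% of all genes. The 3 genes that leaned to L12, PR1, PR2 and PBS3, had a lower level with ABA in L7 in all 3 replicates. SARD1, a regulator of salicylic acid synthesis, leaned to L7 with a difference of -1.78 (SE 0.66), and its mock L12 libraries held 29.6, 35.1 and 139 CPM against 12.9, 30.7 and 23.3 CPM with ABA. The lean of SARD1 rests on mock L12 replicate 3, and without that library the difference was -0.81. Of 13 pattern recognition receptors and their partners, 2 had the higher response in L12, against 48.9% of all genes. None of the 13 leaned, and of all genes tested 4.48% did, so nothing is read from that. In the jasmonate list 1 of 10 leaned, OPR3, an enzyme of jasmonate synthesis, to L7. It fell in L12 by 2.29 (adjusted p = 0.00747) and had -0.92 in L7 (adjusted p = 0.164), and the difference of -1.37 was -0.67 without replicate 3. In the broad annotation class of defense or response to other organisms, 11 of 399 genes leaned to L12 and 8 to L7, or 2.76% and 2.01%, against 1.89% and 2.57% of all 11583 genes with a functional note.

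The defensin branch of the jasmonate and ethylene response had the largest fitted median difference of the 22 lists, 3.83 over 8 members. The response was higher in L12 in 8 of 8, against 48.9% of all genes. The median difference rests on low counts in the ABA groups, since 4 of the 8 had 3 counts or fewer over the ABA L7 libraries. The median was 2.83 with these members set to the bound that 3 counts allow, and 1.69 over the other 4. Without replicate 3 the fitted median was 1.46. PDF1.2, a plant defensin, had 19.2, 0.991 and 139 CPM in mock L7 and 0, 0 and 0.0888 CPM in ABA L7, against 8.32, 0.324 and 13.3 CPM in mock L12 and 0, 0.0446 and 1.21 CPM in ABA L12. PDF1.2b, which is among the 12 genes with the smallest p, had 483 counts over mock L7, 0 over ABA L7, 42 over mock L12 and 37 over ABA L12. PDF1.2, PDF1.2b, PDF1.2c and PDF1.3 get no fold at these counts, and they are close copies whose reads may be shared. Replicate 3 was the highest in mock leaves of both ages. ORA59, the transcription factor that activates them, fell in L7 by 4.41 (adjusted p = 0.00984), from 5.78, 2.31 and 13.8 CPM to 0.0983, 0.493 and 0.178 CPM, and in L12 its mock and ABA libraries overlapped.

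Genes of photosynthesis were lower with ABA in both leaves, with medians of -1.19 in L7 and -0.91 in L12 over 34 members. ABA called 13 of them lower in L7 and 4 in L12, against 2.00% and 3.08% of all genes. The response was higher (less negative) in L12 in 29 of the 34, against 48.9% of all genes. Of the 34, 2 leaned to L12, against 2.16% of all genes. LHCB1.4, a light-harvesting protein, had 10144, 14233 and 19332 CPM in mock L7, 870, 860 and 526 CPM in ABA L7, 7038, 5152 and 13846 CPM in mock L12, and 2017, 2440 and 1182 CPM in ABA L12. The ABA libraries were below the mock libraries in both leaves, by 4.24 log2 units in L7 (adjusted p = 0.00129) against 2.17 in L12 (adjusted p = 0.0123). LHCB4.3, of the same family, fell by 3.36 in L7 (adjusted p = 0.000611) and by 1.53 in L12 (adjusted p = 0.00761), with differences of 2.12, 1.8 and 1.51 by replicate. The list's median difference was 0.29, and 0.35, 0.94 and -0.29 within replicates 1, 2 and 3. Without replicate 2 it was 0.06.

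**Figure D3:**
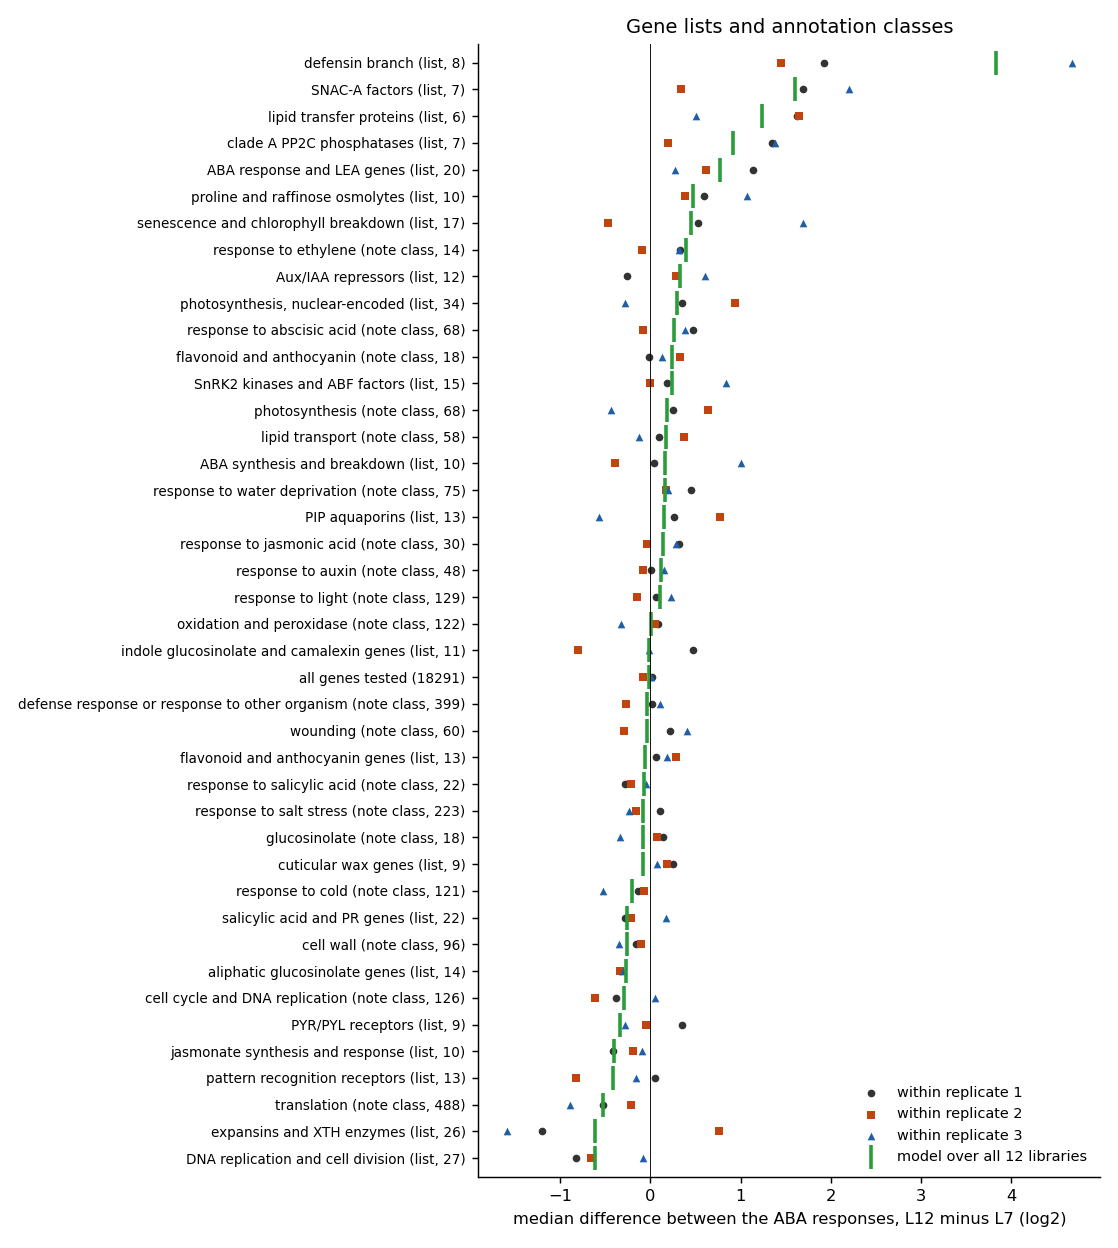
Median difference between the ABA responses (L12 minus L7, log2) of each gene list and annotation class, from the model over all 12 libraries (bars) and within each replicate number (points), with the number of genes tested. All genes tested lie at -0.01, the defensin branch at 3.83, and the translation class at -0.53 with all 3 replicates below 0.

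In the opposite direction, one class stood out by its count. Of 488 genes annotated to translation, 69 leaned to L7 (14.1%) and 0 to L12, against 2.57% and 1.89% of all genes with a functional note. By the fit the response was higher in L7 for 432 of the 488 and in L12 for 56, while of all genes with a functional note 53.8% and 46.2% were on these sides. The medians of the fitted responses were 0.29 in L7 and -0.28 in L12. The summed level of the class in L7 went with ABA from 33421 to 33852, 49316 to 37483 and 52011 to 59970 CPM (replicates 1, 2 and 3). In L12 it went from 50118 to 36568, 44352 to 33547 and 62059 to 35259 CPM. The summed level thus fell in every replicate of L12, while in L7 it fell in replicate 2 and barely moved in replicate 1. The median difference was -0.53, and -0.52, -0.21 and -0.90 within replicates 1, 2 and 3. Within all 3 replicate numbers the difference was negative in 232 members and positive in 17, while over all genes it was so in 16.9% and 14.2%. ABA called 5 of the 488 higher in L7 and none lower, and in L12 called 1 higher and 2 lower, against 0.935% and 2.00% of all genes in L7 and 1.47% and 3.08% in L12. In the fits that left out a library or replicate the median difference lay between -0.69 and -0.32.

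**Figure D4:**
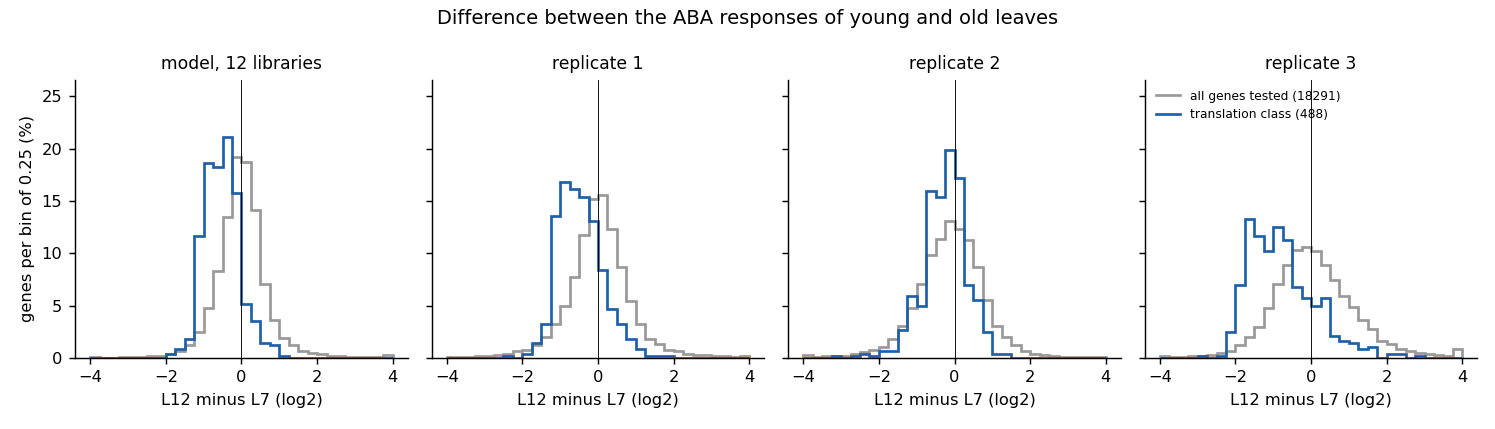
Distribution of the difference between the ABA responses (L12 minus L7, log2) over the 488 genes of the translation class and over all 18291 genes, as percent of genes per bin of 0.25, in the model and within each replicate; values beyond 4 are in the outermost bins. The translation class lies to the left of all genes in each panel, least in replicate 2, where its median is -0.21.

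RPL3B, a protein of the large cytosolic ribosomal subunit, had 8.19, 7.15 and 9.63 CPM in mock L7, 12.4, 13.6 and 22.2 CPM in ABA L7, 13.7, 12.9 and 11.1 CPM in mock L12, and 7.08, 5.48 and 8.69 CPM in ABA L12. It was higher with ABA in L7 and lower with ABA in L12 in all 3 replicates, without overlap in either leaf. The log2 changes were 0.93 (adjusted p = 0.0384) and -0.87 (adjusted p = 0.0403), and the difference was -1.79 (SE 0.35). AT4G13170 and AT3G55750, also ribosomal proteins by their product names, had the same directions in all replicates and differences of -1.53 and -1.23. RFC3, a plastid protein of the ribosomal S6 family, rose in L7 from 26.3, 25.8 and 22.3 CPM to 51.2, 52.5 and 78.9 CPM (log2 change 1.27, adjusted p = 0.00579). In L12 it went from 66.2, 51.8 and 61.6 CPM to 47.0, 41.6 and 54.1 CPM, a change of -0.34. The lower 2 of the ABA L7 libraries of RFC3 lay within the range of the L12 libraries and the highest lay above it. RACK1C, a ribosome-associated scaffold protein, rose in L7 by 1.72 (adjusted p = 0.00394), from 8.40, 10.0 and 5.46 CPM to 25.0, 24.6 and 28.0 CPM, and had 0.03 in L12, where its mock and ABA libraries lay between 20.7 and 30.7 CPM.

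Sets of related genes were formed by product names and notes after the values had been seen. They overlap each other and reach outside the class. Of all genes tested 2.31% leaned to L7 and 2.16% to L12, and of those with a functional note 2.57% and 1.89%. Of 308 ribosomal proteins, 49 leaned to L7 and 0 to L12, with a median difference of -0.63. Of 122 genes noted for ribosome biogenesis or rRNA processing, 24 leaned to L7 and 0 to L12. The response was higher in L7 in 116 of them, against 53.8% of genes with a functional note. Of 18 ribosomal proteins whose product names place them in plastids or mitochondria 1 leaned, with a median of -0.35. The 18 leave out members of these organelles whose product names do not say so, such as RFC3, which leaned. Of 50 tRNA synthetases 2 leaned, with a median of -0.37. Examples chosen after their values were seen include FIB2, NOP56 and NUC-L1, which make or modify ribosomal RNA in the nucleolus. FIB2 rose in L7 by 1.95 (adjusted p = 0.00471), NOP56 by 1.42 (adjusted p = 0.00471) and NUC-L1 by 1.17 (adjusted p = 0.00546), and in L12 they had 0.16, 0.15 and 0.07. NUC-L1 had 177, 179 and 151 CPM in mock L7 and 370, 342 and 434 CPM in ABA L7, against 240 to 290 CPM in mock L12 and 253 to 301 CPM in ABA L12. RPS6, of the small subunit, had 0.48 in L7 and -0.93 in L12 (adjusted p = 0.0270).

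Ribosomal protein genes have short transcripts, and the libraries of this series differ in how levels depend on transcript length. The median transcript of the translation class was 1126 bases against 1758 for all genes. Over the 18179 genes with a transcript length, which are no independent replicates, the correlation (Spearman's rho) of the difference with transcript length was 0.07, -0.43 and 0.33 within replicates 1, 2 and 3, and -0.00024 in the model. For the fitted ABA responses themselves it was 0.386 in L7 and 0.365 in L12, so the responses given for each leaf carry this dependence. The class's median difference was -0.52, -0.21 and -0.90 within the same replicates, and a cause was not tested. With each library adjusted for transcript length and GC content, 72 of the class leaned to L7 and 2 to L12. Without replicate 3, 18 leaned to L7 and 1 to L12, and without replicate 2, 145 and 7. The class holds many families of near-identical copies, so single members are uncertain.

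Promoter windows of ribosomal protein genes that leaned to L7 are shown for words known from such promoters, the telo box AAACCCTA and the site II core TGGGCC, searched on both strands and in capitals here. They are RPL3B (chr1:22723153-22723402, minus strand) and AT3G23390 (chr3:8375083-8375332, plus strand), and the latter was chosen after its values were seen. RPL3B held 1 site II core at 117 bases before the start and no telo box. AT3G23390 held a telo box at 9 bases and 4 site II cores, of which 2 share the palindrome TGGGCCCA.

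RPL3B: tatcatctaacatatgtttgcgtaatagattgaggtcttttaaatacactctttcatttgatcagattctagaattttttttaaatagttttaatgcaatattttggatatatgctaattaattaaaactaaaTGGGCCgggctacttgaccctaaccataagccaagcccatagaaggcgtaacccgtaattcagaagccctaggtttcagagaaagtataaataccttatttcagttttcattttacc

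AT3G23390: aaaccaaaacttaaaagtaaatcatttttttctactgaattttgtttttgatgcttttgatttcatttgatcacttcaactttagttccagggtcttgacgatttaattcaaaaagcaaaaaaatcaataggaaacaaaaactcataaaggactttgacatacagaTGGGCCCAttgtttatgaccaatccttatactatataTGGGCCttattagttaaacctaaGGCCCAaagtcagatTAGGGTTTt

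Outside the class, the genes with the smallest p among those leaning to L7 had varied functions. KCS19, an enzyme of very-long-chain fatty acid elongation, had 1.41, 5.28 and 1.85 CPM in mock L7 and 33.4, 46.0 and 40.4 CPM in ABA L7. In L12 it had 23.0, 27.4 and 9.88 CPM in mock and 35.3, 29.3 and 35.9 CPM in ABA leaves. KCS19 rose in L7 by 3.95 (adjusted p = 0.00129), its ABA L7 libraries overlapped those of ABA L12, and its change in L12 was 0.84 (adjusted p = 0.157). CS26, a plastid cysteine synthase isoform, rose in L7 by 1.66 (adjusted p = 0.00307), from 7.93, 10.9 and 6.82 CPM to 23.7, 24.2 and 32.8 CPM, and its L12 libraries lay between 22.8 and 29.1 CPM. AT3G23940, a dehydratase of branched-chain amino acid synthesis, rose in L7 by 1.62 (adjusted p = 0.00658) and had -0.09 in L12. PUR7 and AT2G37690 act in purine synthesis. PUR7 had 7.99, 5.94 and 11.3 CPM in mock L7, 14.1, 9.95 and 19.2 CPM in ABA L7, 18.6, 12.8 and 19.3 CPM in mock L12, and 11.7, 8.29 and 11.9 CPM in ABA L12. Within each replicate PUR7 was higher with ABA in L7 and lower in L12, by nearly equal amounts (differences of -1.47, -1.35 and -1.45). AT2G37690 rose in L7 by 2.05 (adjusted p = 0.00135) and had 0.61 in L12. cpHsc70-2, a chaperone of the chloroplast, had a difference of -1.50 (SE 0.34), with 0.77 in L7 and -0.73 in L12. SULTR3;5, a sulfate transporter, leaned through a decrease in L12, from 3.92, 2.02 and 1.1 CPM to 0.0460, 0.0446 and 0.0865 CPM (log2 change -5.07, adjusted p = 0.000647; 4 counts over the ABA L12 libraries), against -1.36 in L7 (adjusted p = 0.0559).

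In the list of DNA replication and cell division, 24 of 27 members had the higher response in L7, against 51.1% of all genes. Of the 27, 2 leaned to L7 and none to L12, against 2.31% and 2.16% of all genes. The median response was -0.15 in L7 and -0.77 in L12, and the median difference was -0.62 (-0.82, -0.65 and -0.08 by replicate). RNR1, the large subunit of the enzyme that makes DNA precursors, had 6.85, 5.72 and 2.33 CPM in mock L7, 13, 8.29 and 7.55 CPM in ABA L7, 39.0, 59.0 and 18.3 CPM in mock L12, and 32.7, 28.9 and 29.1 CPM in ABA L12. All 3 replicates of RNR1 were higher with ABA in L7, and 1 of 3 was in L12. MCM5, of the replication helicase, had a difference of -1.17 (SE 0.50), and RNR1 had -1.25. Both leans rest on mock L12 replicate 2, without which the differences were -0.74 for MCM5 and -0.81 for RNR1. Over the fits that left out a library or replicate the list's median lay between -0.97 and -0.21. HTR2, a histone H3.1 of replicating cells, fell in both leaves, by 1.52 and by 2.04. IAA17, a repressor of auxin responses, fell in L12 by 1.90 (adjusted p = 0.00313) and had -0.46 in L7, and it was the only one of 12 Aux/IAA genes that leaned.

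In other lists few or no genes leaned. Of all genes tested 4.48% leaned, which at these list sizes would be few or none as well, so nothing is read from it. Of 13 PIP aquaporins 4 were called lower with ABA in L7 and 4 in L12, against 2.00% and 3.08% of all genes, and none leaned. PIP2;3 fell by 3.74 in L7 and by 3.72 in L12. Of 9 cuticular wax genes none leaned, and CER1, of alkane synthesis, rose by 1.52 and 1.42. Of 13 flavonoid and anthocyanin genes 1 leaned to L12 (CHI, with a difference of 1.00), and LDOX rose by 4.04 and 3.91. No gene leaned among 14 of aliphatic and 11 of indole glucosinolate and camalexin synthesis. The response was higher in L7 in 11 of the 14 and in 6 of the 11, against 51.1% of all genes. Of 26 expansins and XTH enzymes, which loosen cell walls, 1 leaned to each side. EXPA8 leaned to L12 on 4 counts in all over the ABA L7 libraries, and EXPA16 to L7.

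Read the other way, the interaction is a change of the difference between the leaf ages. In mock plants 2728 genes were called between L12 and L7 (14.9%), 6.81% of all genes as higher in L12 and 8.10% as lower. In ABA plants 1246 were called (6.81%), 3.13% as higher and 3.68% as lower, and these comparisons share no library. Neither count was stable. In the fits that left out a library or replicate they ranged from 0 to 2841 in mock and from 0 to 3299 in ABA plants. Across all 18291 genes the age differences correlated with r = 0.813 and rho = 0.833, and genes are not independent replicates. The median absolute age difference was 0.73 in mock and 0.66 in ABA plants. Of the 396 genes leaning to L12, 354 were lower in L12 than in L7 of mock plants, and their median absolute age difference went from 1.76 in mock to 0.75 in ABA leaves. Of the 423 leaning to L7, 366 were higher in L12 of mock plants, and the median went from 1.00 to 0.69. The same mock libraries enter the lean and the age difference, so part of this is built in and nothing is read from it. Among genes leaning to L12 by an increase in L12, the median age difference was -2.08 in mock and -0.44 in ABA plants.

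The replicate numbers did not share one pattern of differences across the genome. Across genes the difference within replicate 1 correlated with that within replicate 2 by r = 0.145 and with that within replicate 3 by r = 0.469, and replicates 2 and 3 had r = -0.238. The standard deviation across genes was 0.867, 0.897 and 1.19. Same-sign differences in all 3 replicates were found in 5686 genes (31.1%). With 3 differences the smallest two-sided p of an exact sign-flip test on one gene is 0.25, so replicate agreement alone cannot decide on a gene. In some ABA pathway genes replicate 2 had the smallest difference, as for HAI2 (3.69, 0.34 and 4.07 in replicates 1, 2 and 3), P5CS1 (2.01, 0.32 and 3.07) and HAI1 (2.73, 0.20 and 1.48), and for RD29A it was -0.07. The list medians differed in this, lowest in replicate 2 for the PP2C phosphatases (1.35, 0.20 and 1.38) and in replicate 3 for the 20 ABA response genes (1.13, 0.62 and 0.27). For HAI2 the replicate 2 libraries were the highest of their group in ABA L7 and in mock L12.

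The promoter words were counted over the 17797 tested genes with a window, with earlier results known and 16 words searched. The ABRE core ACGTG was in 23.6% of all windows, in 36.7% of those of genes leaning to L12 (139 of 379) and in 22.3% of those leaning to L7 (94 of 421). The share was 39.5% where the larger response was an increase in L12 and 32.7% where it was a decrease in L7. Without the ABA response, PP2C and SNAC-A lists, 61.8% of whose 34 windows held the word, it was 35.8% of 372. Of 1203 genes that were called lower in L12 of mock plants but did not lean, 26.5% held it. The G-box CACGTG, which contains the core, was in 7.60% of all windows, 11.3% leaning to L12 and 6.41% leaning to L7.

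For the genes leaning to L7 the order was reversed. The telo box was in 3.59% of all windows, 9.98% leaning to L7 and 1.85% leaning to L12, and the site II core in 17.5%, 25.9% and 7.65%. In the translation class 11.7% of windows held a telo box, and 26.1% (18 of 69) of those that leaned. The site II core was in 42.6% of the class and in 49.3% of those that leaned. Outside the class, 6.82% of the windows leaning to L7 held a telo box and 21.3% a site II core. Of 1107 genes that were called higher in L12 of mock plants but did not lean, 4.52% held a telo box. A site II core was in 21.0% of these 1107, close to the share outside the class. The W-box core TTGAC, known from promoters of defense genes, was in 44.5% of all windows, 43.3% leaning to L12 and 45.6% leaning to L7. The median GC content of the windows was 31.2% for all, 30.8% for those leaning to L12 and 32.0% for those leaning to L7. A match is a description of letters and neither a binding site nor a cause.

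**Figure D5:**
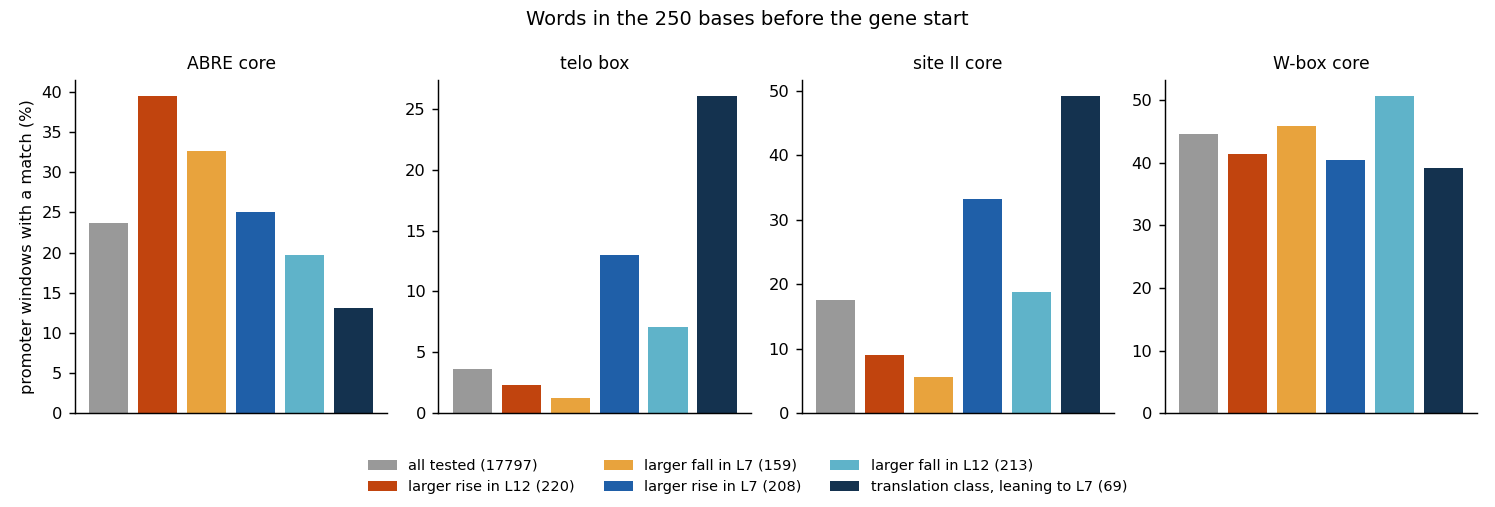
Percent of promoter windows (250 bases before the gene start) that hold each of 4 words on either strand, for all tested genes, the 4 kinds of leaning genes and the leaning genes of the translation class, with the number of windows in the legend; each panel has its own scale. The ABRE core reaches 39.5% where the larger response was an increase in L12 against 23.6% of all windows, and the telo box 26.1% in the leaning translation genes against 3.59%.

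Of the 35 genes that DESeq2 called, 16 are described by neither the order of p nor a list, and all 16 had the higher response in L12. HIS1-3, a drought-inducible linker histone, had 4.53, 25.0 and 11.1 CPM in mock L12 and 195, 299 and 180 CPM in ABA L12, a log2 change of 4.21 (adjusted p = 0.000985) against 1.39 in L7 (adjusted p = 0.0717). AIRP2, a ubiquitin ligase of the ABA response, rose in L12 by 1.65 (adjusted p = 0.00110) and had 0.27 in L7. UBQ3, a polyubiquitin, had 249, 416 and 237 CPM in mock L12 and 810, 1067 and 798 CPM in ABA L12, a rise of 1.6 (adjusted p = 0.00163), while mock and ABA overlapped in L7. GASA4, a gibberellin-responsive peptide, fell in both leaves, by 4.92 in L7 (adjusted p = 0.000421) and by 2.58 in L12 (adjusted p = 0.00148). CWLP, a cell wall protein, had 107, 381 and 50.4 CPM in mock L12 and 333, 592 and 113 CPM in ABA L12, and 34.8, 39.6 and 24.2 CPM in mock L7 against 11.9, 18.7 and 8.35 CPM in ABA L7. Each replicate of CWLP moved up in L12 and down in L7, by a difference of 2.53 (SE 0.54).

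Markers of cell types were compared between the groups as well. Of 6 guard cell markers none leaned, with a median difference of 0.08 and a summed level of 15.0 to 29.5 CPM in mock L7, 17.0 to 21.3 in ABA L7, 28.8 to 64.6 in mock L12 and 38.4 to 47.4 in ABA L12. Of 3 tested epidermis markers PDF1 leaned to L12, with 14.0, 38.0 and 4.25 CPM in mock L12 and 47.9, 42.0 and 8.65 CPM in ABA L12, and at most 2.2 CPM in the L7 libraries. That lean rests on mock L7 replicate 2, without which the difference was 0.18 in place of 3.46. The summed level of the 3 was 19.0 to 43.0 CPM in mock L7, 32.6 to 49.1 in ABA L7, 48.8 to 114 in mock L12 and 63.6 to 109 in ABA L12. ATML1, the defining factor of the epidermis, had a difference of -0.52. The lipid transfer proteins LTP2, LTP3 and LTP4 are expressed in the epidermis, and the part of the epidermis in their lean was not tested.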

How the data were processed

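The authors deposited raw counts per gene for the 12 libraries (poly(A) RNA, strand-specific kit), made per the submitters' processing notes with CASAVA 1.8.2, cutadapt 1.5, TopHat2 2.0.10 and HTSeq 0.6.1 on TAIR10; for the strand setting of the counting, the sources used here give none. The 5 lines of the table that name no gene were left out. Genes whose counts averaged 10 or more per library were fitted with edgeR 4.0.16 (R 4.3.3; TMM, quasi-likelihood), with terms for the 4 groups and the replicate number, over all 12 libraries. A call needed a Benjamini-Hochberg adjusted p below 0.01 over all 18291 genes and a log2 change beyond 1. The interaction and both ABA responses came from this fit, and the differences within a replicate number from log2 CPM with a prior count of 2. DESeq2 1.42.0, limma 3.58.1 with voom, other scalings and filters, and fits without single libraries or replicates were alternatives.

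The replicate numbers paired the libraries only in part: deviations of same-numbered libraries from their group means correlated with r between -0.0234 and 0.65 (median 0.361, 18 pairs, 16 of them over 0.1), and those of differently numbered libraries with a median of -0.217. Deviations cancel out within each group of 3 libraries, so part of the contrast between these medians is built in. No 2 libraries of the same group agreed within sampling noise (12 pairs), and pairs across groups were not compared in this way. Named genes were, in each direction, the 12 leaning genes with the smallest interaction p and a mean of at least 1 CPM in a group, the leaning members of 22 lists, other list members given beside them, genes called by another tool, and genes marked as chosen after their values were seen. Members and lists were chosen with earlier results of these data known. Of the genes, 31912 matched RefSeq's TAIR10.1, which gave symbols, notes, transcript lengths and the promoter windows. The code was tested on simulated counts.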

Additional observations from a re-analysis of the deposited data

Results flagged for a closer look

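In 13 named genes all 3 pairs of ABA and mock libraries moved one way in L7 and the other way in L12. The difference between the responses passed the adjusted threshold for none of them (edgeR, adjusted p below 0.01). Over all 18291 tested genes 443 had this form. Named genes were in part chosen for a difference of the same sign in all 3 replicates, which favors this form, so the count is no evidence for them. In 7 of the 13 the response was higher in L12, with a difference on the log2 scale of 3.14 for LTP2, 4.60 for AT1G33055, 1.65 for GAMMA-VPE, 2.06 for SWEET13, 1.28 for PYL9, 2.07 for AT1G10690 and 2.53 for CWLP. In the other 6 it was higher in L7, with -1.61 for RFC3, -1.43 for PUR7, -1.79 for RPL3B, -1.53 for AT4G13170, -1.23 for AT3G55750 and -1.50 for cpHsc70-2. These 6 were higher with ABA in each replicate of L7 and lower in each of L12. AT1G10690, related to cell cycle inhibitors, had 8.80, 9.69 and 19.0 CPM in mock L7 and 4.47, 3.5 and 7.28 CPM in ABA L7, against 2.54, 3.24 and 4.1 CPM in mock L12 and 5.34, 5.79 and 5.45 CPM in ABA L12, without overlap in either leaf.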

How the results depend on the processing

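No fit that left out a library or replicate called a gene for the interaction (0 to 0 calls). The genes at an unadjusted p below 0.05 ranged from 448 without replicate 1 to 2309 without mock L7 replicate 2, those leaning to L12 from 264 without replicate 1 to 1068 without replicate 2, and those leaning to L7 from 169 without replicate 1 to 1071 without mock L7 replicate 2. The age calls ranged from 0 to 2841 in mock (0 without replicate 3) and from 0 to 3299 in ABA plants (0 without replicate 1). An adjusted p of 0.1 gave 1 call, library size alone as the scaling 1, and DESeq2 35. At an unadjusted p of 0.01, 167 genes leaned to L12 and 132 to L7. Without the replicate block, 731 genes had an unadjusted p below 0.05, 233 leaned to L12, 50 genes were called for ABA in L7 against 139 in L12, and the age comparison called 99 in mock and 12 in ABA plants. The cause was not tested. Among the named genes run under these alternatives (those with the smallest p, the leaning list members and those called by DESeq2) none reversed its difference. These genes were chosen by their values in the same libraries, so the kept sign was largely given in advance and is no support for them. Other list members and genes chosen after their values were seen were not run. In the translation class the genes leaning to L7 numbered 56 to 95 under the other tools, scalings and filters and without the block, and 18 to 145 in the fits that left out a library or replicate.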

Other observations

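Groups of genes chosen after their values had been seen also lay on the side of L7. Because of this choice their counts are no evidence for them. Of all genes tested 2.31% leaned to L7 and 2.16% to L12. Of 13 genes of purine synthesis, which supplies the building blocks of RNA and DNA, 5 leaned to L7 and 0 to L12, with a median difference of -0.86, and -0.92, -0.60 and -1.32 within replicates 1, 2 and 3. Their median response was 0.39 in L7 and -0.47 in L12. Of 35 chaperonins and chaperones of the HSP60 and HSP70 families, 7 leaned to L7 and 0 to L12, with a median difference of -0.61 and all 3 replicates below 0 (-0.37, -1.0 and -0.53). The summed level of the 308 ribosomal proteins was 22524 to 35757 CPM in mock L7, 23899 to 44582 in ABA L7, 30354 to 44078 in mock L12 and 23038 to 25152 in ABA L12, so that the ABA L12 libraries were below every mock L12 library.

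Annotation classes on the side of L12 were smaller. Of 68 genes noted for response to ABA 7 leaned to L12 and 0 to L7, of 75 for water deprivation 6 and 0, and of 58 for lipid transport 8 and 0. Of all genes with a note 1.89% leaned to L12 and 2.57% to L7. In the class for cold 2 of 121 leaned to L12 and 6 to L7, and in that for salt 4 and 6 of 223, shares near those of all noted genes for salt and for L12 in cold. The promoter word GGATAAG, known as the I-box of light-regulated genes, was in 2.92% of all windows, 8.44% of those leaning to L12 and 1.90% of those leaning to L7, and was 1 of 16 words searched.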
